A study of Mus musculus with 6 samples.

Results

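The genes described here are Myl7 and 7 other myosin light chains: Myl12a, Myl12b, Myl6, Myl6b, Myl1, Myl3 and Myl4. They were taken by gene name from a table of 54532 genes, and all 8 were listed in it. Myl7 was chosen by its measured FPKM values in these same libraries, where it differed between the groups, so that difference is given as a description and supports nothing further. The other 7 were added as relatives, by name. Colon RNA was sequenced from mice of the C57BL/6 strain aged 56 days. The groups held 3 libraries each, labelled wild type (WT) and IL10-/- (here Il10 knockout). Interleukin 10 is an anti-inflammatory cytokine, and its loss in mice is a common model of chronic colitis. No treatment, sex or allele is stated for either group, and nothing says whether a library came from 1 mouse. Values are FPKM, reads scaled to gene length and to a size per library whose source is not given, and the spread quoted is between libraries.

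Myosins are motors that pull on actin filaments, and the class II myosins of muscle and of the cell cortex carry a pair of light chains on the neck of each heavy chain. The essential light chain stiffens the neck. In smooth muscle and non-muscle cells the regulatory light chain is phosphorylated by myosin light chain kinase and other kinases, and this turns the motor on, whereas myosin phosphatase turns it off. In the gut this switch works both in the muscle layers, which move the contents along, and in the actin belt under the epithelial junctions. Myl7 encodes the regulatory chain of heart atria and is widely used as a marker of atrial muscle cells. Myl12a and Myl12b encode the regulatory chains found in most cells, and Myl9 that of smooth muscle. Myl6 is the main essential chain outside striated muscle and Myl6b a relative of it, while Myl1, Myl3 and Myl4 are essential chains of fast skeletal, ventricular or slow skeletal, and atrial or embryonic muscle.

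The first 60 bases of the coding sequences, which encode the amino end of the regulatory chains, are shown because they set Myl7 apart from the regulatory chains of other cells. They were read from GENCODE mouse release M21 transcripts, and capitals mark the bases that differ from Myl12a at the same position.
Myl12a: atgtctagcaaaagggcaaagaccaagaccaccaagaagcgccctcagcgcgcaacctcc
Myl12b: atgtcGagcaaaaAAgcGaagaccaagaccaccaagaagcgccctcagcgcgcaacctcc
Myl9: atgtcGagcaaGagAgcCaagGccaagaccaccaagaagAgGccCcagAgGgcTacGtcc
Myl7: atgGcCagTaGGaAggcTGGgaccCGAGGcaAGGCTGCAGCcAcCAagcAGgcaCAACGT
Over these 60 bases, compared with no gaps, Myl12b differed from Myl12a at 4 positions, Myl9 at 12 and Myl7 at 35. The coding sequence of Myl7 has 528 bases and that of Myl12a 519, so a shift in register may add to the 35. Over the aligned coding sequences Myl12a and Myl12b were 96.5% identical, Myl12a and Myl9 85.5%, and Myl7 and Myl12a 61.0%. Myl7 was closer to Mylpf, the regulatory chain of fast skeletal muscle, at 64.7%, and Myl7 and the essential chain Myl6 were 48.3% identical. Of the 555 windows of 36 bases in the principal Myl7 transcript, 0 occurred in a transcript of another gene. Reads of Myl7 could therefore be told apart from those of its relatives at that window length. The read length is not given in the sources used here.

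Myl7 lies on the minus strand of chromosome 11, bases 5896637 to 5898782 (GRCm38, ENSMUSG00000020469), in 7 exons that make a transcript of 590 bases, and no other annotated gene overlaps it. Under the WT label it stood at 1.26, 1.54 and 1.31 FPKM. Under the knockout label its values were 54.7, 23.4 and 26.5 FPKM. All 3 knockout values lay above all 3 WT values, and knockout library 1 stood above the other two. The group means were 1.37 ± 0.149 FPKM in WT and 34.8 ± 17.2 in the knockout (SD, n = 3 each), 25.4-fold apart. On the log2(FPKM + 1) scale the difference, knockout minus WT, was 3.82 (SE 0.34), which placed Myl7 at rank 21 by that difference among the 12668 genes with a mean of at least 1 FPKM that were tested.

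The WT level of Myl7 rested on few reads. Reads recovered from the FPKM values numbered 12, 12 and 10 in the WT libraries and 407, 217 and 255 in the knockout libraries. Exact Poisson intervals at 95%, which cover counting error only, ran from 0.629 to 2.69 FPKM over the 3 WT libraries and overlapped one another. For knockout library 1 the interval was 49.5 to 60.2 FPKM, above the intervals of knockout library 2 (20.4 to 26.7) and knockout library 3 (23.4 to 30.0). Levels in the knockout group thus differed between libraries by more than counting error.

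**Figure D1:**
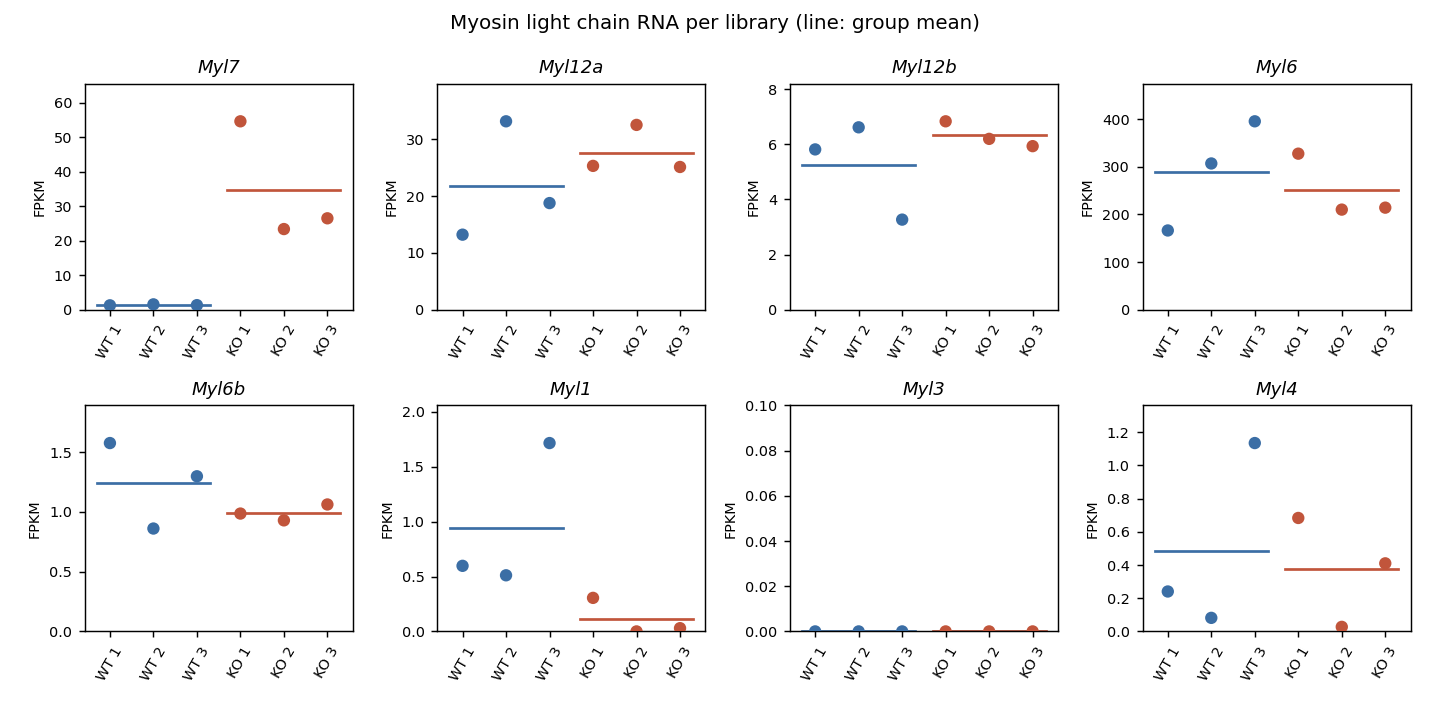
Each panel plots 1 light chain gene, with FPKM on the vertical axis and 1 point per library (WT in blue, Il10 knockout, marked KO, in red); the line is the group mean. The 3 knockout points of Myl7 sit between 23.4 and 54.7 FPKM, above WT points of 1.26 to 1.54, while the groups overlap for Myl12a, Myl12b, Myl6, Myl6b and Myl4 and Myl3 is at 0.

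Of the 8 light chains, 5 passed the minimum of 1 FPKM and entered the limma fit, and 3 (Myl1, Myl3 and Myl4) did not. Among the 5, 1 was called at an adjusted p under 0.05, and that was Myl7, the gene chosen for it (limma adjusted p = 0.0157). Over all genes tested 0.182% were called (23 of 12668), all of them higher in the knockout. No gene was called lower, and 510 (4.03%) were lower with an unadjusted limma p below 0.05. The 4 other tested light chains were not called, 2 with a positive and 2 with a negative difference. Groups did not overlap for 1 of the 5, again Myl7, against 16.7% of all tested genes in either direction and 8.84% with the knockout higher. Il10 itself was at 0.757, 0.173 and 0.177 FPKM in the WT libraries and at 13.8, 10.6 and 14.5 in those labelled knockout. That is higher, not lower, under the knockout label, and since the allele and the part of the gene it removes are not given, the RNA does not check the labels. Every direction given here rests on those labels.

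The regulatory chains of most cells overlapped between the groups. Myl12a, on the minus strand of chromosome 17 (bases 70993656 to 71002878), was at 13.2, 33.2 and 18.8 FPKM in WT and 25.3, 32.6 and 25.2 in the knockout. WT library 2 held the highest value of all 6 libraries and WT library 1 the lowest, so the groups overlapped. The difference was 0.42 on the log2 scale (SE 0.37). Myl12b, 2765 bases from Myl12a (bases 70973133 to 70990890), was at 5.82, 6.62 and 3.27 FPKM in WT and 6.84, 6.20 and 5.93 in the knockout. Its WT library 3 was low and the other 5 libraries lay close together, with a log2 difference of 0.27 (SE 0.27) that fell to 0.02 without that library.

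Per length, Myl7 made up a small share of the 3 regulatory chains of the set in WT and a large share in the knockout. Its share of their summed FPKM was 6.21%, 3.72% and 5.61% in the WT libraries, a mean of 5.18% ± 1.30 (SD, n = 3). In the knockout libraries its share was 62.9%, 37.6% and 46.0%, a mean of 48.9% ± 12.9. Myl9, the regulatory chain of smooth muscle, is outside this pool. With Myl9, Myl2, Myl10 and Mylpf added to it, the mean share of Myl7 was 0.296% in WT and 16.5% in the knockout. The ratio of Myl7 to Myl12a was between 0.046 and 0.095 in WT and at 2.16, 0.718 and 1.05 in the knockout, so Myl7 lay above Myl12a in knockout libraries 1 and 3 and below it in library 2. Summed FPKM of the 3 chains was 20.3, 41.4 and 23.4 in WT and 86.8, 62.2 and 57.6 in the knockout. These shares follow from the Myl7 contrast that chose the gene and are given with no test.

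The lengths used bear on such shares. The file's length of a gene covers every annotated exon, which for Myl7 equals its principal transcript but is 1.73 times it for Myl12a and 1.29 times for Myl12b. Recomputed per principal transcript length, a choice made after seeing the data, the share of Myl7 was 3.23% ± 0.868 in WT and 37.2% ± 12.4 in the knockout. On that scale Myl7 passed Myl12a in knockout library 1 alone, with 50.9% against 40.9%.

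**Figure D2:**
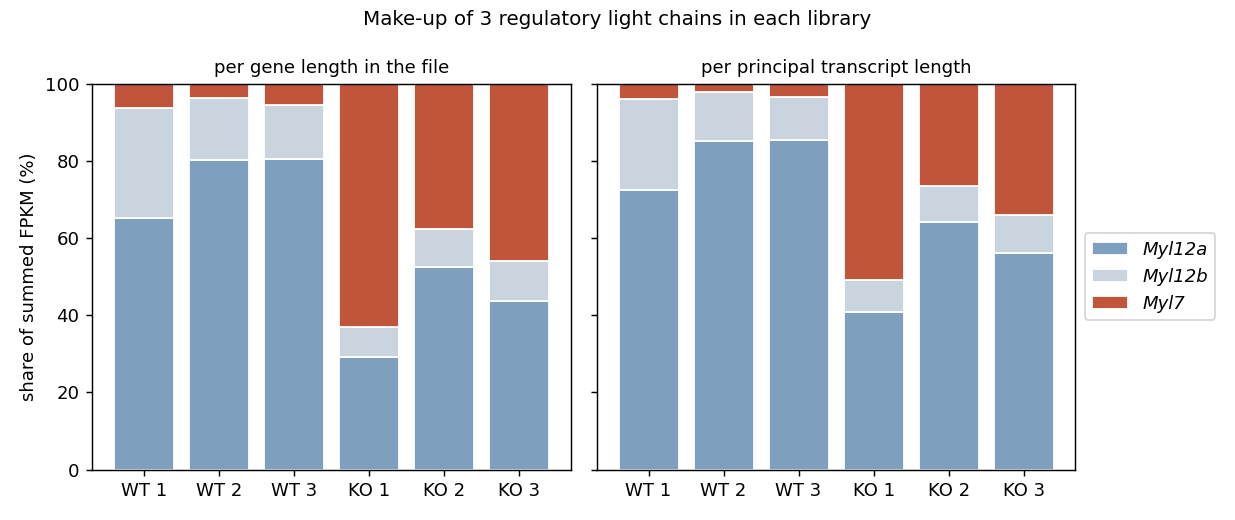
Stacked bars give the percent of summed FPKM from Myl12a, Myl12b and Myl7 in each library, with the gene lengths of the file on the left and principal transcript lengths on the right. Myl7 fills 3.72 to 6.21% of the WT bars on the left and 37.6 to 62.9% of the knockout bars. Myl9 is not part of the bars.

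Myl6 was the most abundant of the 8 light chains in every library. It lies on the minus strand of chromosome 10 (bases 128490860 to 128494145) and was at 166, 307 and 395 FPKM in WT and 327, 210 and 214 in the knockout. The lowest and the highest of these 6 values were both WT, and the log2 difference was -0.15 (SE 0.44), which turned to 0.12 without WT library 3. Myl6 made up 98.6 to 99.5% of the summed FPKM of the 5 essential chains in each library. Its share of all 8 light chains was 89.7% ± 3.25 in WT and 78.0% ± 0.949 in the knockout (SD, n = 3 each). Per principal transcript length it was 96.1% and 92.6%, and with Myl9 and 3 other light chains in the pool 32.1% and 53.4%, which turns the direction. The sum over the 8 was 320.5 ± 120 FPKM in WT and 320.9 ± 82.6 in the knockout.

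Reads of Myl6 can belong to other genes. Of the 36-base windows of its principal transcript, 62.2% also occurred elsewhere, mostly in processed pseudogenes: 47.6% in Gm5526 and 46.3% in Gm10080. Gm5526 was listed at 6.30, 21.8 and 40.2 FPKM in WT and 28.3, 23.9 and 17.3 in the knockout. Its lowest and highest values fell in the same libraries as those of Myl6. For Myl12a 30.9% of windows were shared with other genes and 14.5% with Myl12b, and for Myl12b the shared portion was 33.4%. How reads with several matches were counted is not given in the sources used here, so the split between Myl12a and Myl12b, and the level of Myl6, are uncertain. A readthrough gene listed as AC154187.2 spans both Myl12 genes on their strand and was below 0.212 FPKM in all libraries, and Myom1, a sarcomere protein gene, overlaps the start of Myl12a on the other strand. Myom1 was at 1.69, 2.50 and 20.8 FPKM in WT and 1.31, 0.286 and 1.34 in the knockout, unlike Myl12a.

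Myl6b lies upstream of Myl6 on the same strand (chromosome 10, bases 128494157 to 128498685), with 11 bases between the end of Myl6b and the start of Myl6, at a level far below it. It was at 1.58, 0.861 and 1.30 FPKM in WT and 0.987, 0.930 and 1.06 in the knockout. These values rested on few reads, 47, 21 and 31 in WT and 23, 27 and 32 in the knockout. The groups overlapped, the log2 difference was -0.16 (SE 0.24), and the highest value was 1.83 times the lowest, the narrowest range among the 5 tested light chains. Only 2.42% of its 36-base windows occurred in other genes.

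The essential chains of striated muscle had mean levels below 1 FPKM, and Myl3 had no reads. Myl4, the atrial chain, lies on the plus strand of chromosome 11 (bases 104550663 to 104595753) and was at 0.241, 0.0817 and 1.13 FPKM in WT and 0.683, 0.0274 and 0.410 in the knockout. These values rested on 18, 5 and 68 reads in WT and 40, 2 and 31 in the knockout, and the groups overlapped. The atrial essential chain thus overlapped between the groups, while the atrial regulatory chain Myl7 did not. Myl1, of fast muscle, on chromosome 1 (bases 66924295 to 66945404, minus strand), was at 0.597, 0.511 and 1.72 FPKM in WT and 0.306, 0 and 0.0296 in the knockout. Its groups did not overlap, with the WT libraries above, a pattern held by 7.89% of tested genes. Yet it held 80 reads in WT and 9 in the knockout and was below the minimum for testing. A pseudogene, Mylf-ps, shares 37.0% of the Myl1 windows and was at 0.442, 0.360 and 2.76 FPKM in WT and 0.753, 0 and 0 in the knockout. Myl3, on chromosome 9 (bases 110741861 to 110769798, plus strand), was at 0 in all 6 libraries, where 3 reads over a group would have given 0.0347 FPKM in WT and 0.0329 in the knockout.

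Ordered by group mean per length, WT ran from Myl6 through Myl12a and Myl12b to Myl7 and Myl6b, then Myl1, Myl4 and Myl3. In WT Myl7 (1.26 to 1.54 FPKM), Myl6b (0.861 to 1.58) and Myl1 (0.511 to 1.72) overlapped, as did Myl1 and Myl4, and in WT library 3 Myl1 lay above both Myl7 and Myl6b. In the knockout libraries Myl7 (23.4 to 54.7 FPKM) overlapped with Myl12a (25.2 to 32.6) and lay above Myl12b (5.93 to 6.84). Myl6, Myl12a, Myl12b and Myl6b kept this order among themselves in every library of either group. Myl4 lay above Myl1 in each knockout library and below it in each WT library, on these few reads.

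The colon also expressed light chains outside the set, and the largest was Myl9. It was at 270, 355 and 1949 FPKM in WT and 262, 33.1 and 217 in the knockout, with a log2 difference of -2.20 (SE 1.03), limma adjusted p = 0.525. Myl9 lay above Myl6 in all 3 WT libraries, at 1.16 to 4.93 times its level, and at 0.800, 0.158 and 1.01 times in the knockout. This order rests on the file's lengths, which are 4.79 times the principal transcript for Myl6 and 1.03 times for Myl9. Per principal transcript, Myl9 made up 25.0%, 19.1% and 50.8% of all light chains in WT and Myl6 71.6%, 77.0% and 47.9%, so that Myl9 was above Myl6 in WT library 3 alone. With Myl9 and 3 other light chains added to the pool, Myl7 made up 0.183% ± 0.114 of the total in WT and 7.02% ± 1.42 in the knockout. Mylpf did not reach the minimum for testing and stayed between 0.404 and 1.36 FPKM. Myl2, the ventricular regulatory chain, was at 0 in 5 libraries and at 0.0794 in WT library 3, and Myl10 was at 0.198 FPKM or less.

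The heavy chains, kinases, phosphatase subunits and other myosins that work with the light chains were read from 4 lists with 59 genes in all, of which 58 were in the file and 40 were tested. None was called by limma (0 higher and 0 lower), against 0.182% of all genes. An unadjusted limma p below 0.05 was seen for 5 of them, against 10.2% of all genes. Of the 40, 26 had a positive and 14 a negative log2 difference, with a median of 0.30 beside 0.04 over all tested genes. Only 3 of 14 class II heavy chains reached the minimum for testing. Myh11, the smooth muscle chain, was at 65.6, 92.6 and 510 FPKM in WT and 50.6, 7.92 and 62.3 in the knockout. The non-muscle chain Myh14 was at 40.8, 135 and 28.1 against 97.9, 81.3 and 58.1, and Myh9, also a non-muscle chain, at 18.7, 26.9 and 19.0 against 26.9, 41.5 and 28.7. Groups overlapped for Myh14 and Myh9 but not for Myh11, where the knockout was lower. A further non-muscle chain, Myh10, was below the minimum for testing. It was at 0.758, 0.760 and 2.301 FPKM in WT and 0.242, 0.322 and 0.305 in the knockout. Its groups did not overlap either, with the knockout lower, a pattern held by 7.89% of tested genes. The log2 differences were -2.26 (SE 1.01) for Myh11, 0.51 (SE 0.60) for Myh14 and 0.56 (SE 0.29) for Myh9. The median of these 3 went from 0.51 to 0.05 when WT library 3 was left out. Myh6, the alpha chain of heart muscle, was at 0.115 FPKM or less in every library, and at 0 in all 3 knockout libraries.

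The genes that set the phosphorylation of the regulatory chain had differences of both signs. Of 25 listed, 21 were tested, 10 with positive and 11 with negative differences, median -0.06. Mylk, myosin light chain kinase, was at 29.7, 39.8 and 182 FPKM in WT and 28.2, 6.26 and 16.9 in the knockout, a log2 difference of -1.97 (SE 0.79) with limma adjusted p = 0.475. The targeting subunits of myosin phosphatase also gave negative values, -0.93 (SE 0.35) for Ppp1r12a and -1.46 (SE 0.48) for Ppp1r12b. Rock2, a kinase that acts on the regulatory chain and on myosin phosphatase, was at 6.61, 9.95 and 6.07 FPKM in WT and 12.5, 14.6 and 10.2 in the knockout, a difference of 0.66 (SE 0.27). None of these passed after adjustment (limma adjusted p = 0.413 or more for each). These 4 were among the 5 genes with an unadjusted p under 0.05 and were chosen for that after their values were seen. Among the most abundant genes of the list were the calmodulin genes Calm2 and Calm3, with differences of 0.46 and 0.57, and the phosphatase inhibitors Ppp1r14d and Ppp1r14b, with 0.51 and 0.41. Groups overlapped for all 4.

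All 15 unconventional myosins and partners were tested, 14 with a positive difference and a median of 0.51, and none was called. Over all tested genes 6853 differences were positive and 5815 negative. Myo1a, a motor of the epithelial brush border, was at 45.4, 171 and 41.6 FPKM in WT and 116, 126 and 87.6 in the knockout, a difference of 0.66 (SE 0.57). Myo1d, Calml4, Myo7b and Myo1e, the next most abundant, had differences of 0.95, 0.66, 0.08 and 0.51 with groups that overlapped. Myo1c was the one with an unadjusted limma p under 0.05 and was named for that, at 0.76 (SE 0.32, limma adjusted p = 0.490).

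Cell type markers were read beside these genes, because in whole colon fewer cells of a type and less RNA per cell cannot be told apart. Heart muscle markers were near 0: of 20 listed, 16 stayed below 1 FPKM in every library and 4 (Nppa, Myh7, Tbx5 and Nkx2-5) were at 0 in all. Summed over the list they came to 4.46 to 27.6 FPKM in WT and 2.27 to 4.06 in the knockout, and 4.06 was in knockout library 1, where Myl7 was highest. Pln, a regulator of the calcium pump that smooth muscle also holds, gave the largest part, at 1.19, 2.06 and 13.4 FPKM in WT and 0.517, 0.0461 and 0.778 in the knockout. Mybpc3, named after its values were seen, was at 0 in all WT libraries and at 0.0571, 0.0764 and 0.0442 FPKM in the knockout. Those knockout values rested on 3, 5 and 3 reads. Neither of the 2 tested heart markers was called. Skeletal muscle markers summed to 7.18 to 14.6 FPKM in WT and 6.00 to 7.83 in the knockout, with 4 of 16 tested and none called. Myot, a Z disc protein gene of that list, was at 0 in all 3 WT libraries and at 1.15, 3.57 and 1.75 FPKM in the knockout (limma adjusted p = 0.201). It was the 1 tested gene of the list with a positive log2 difference. The other 3 were negative: Ckm (-1.21), Acta1 (-0.56) and Tnnt1 (-0.09). The list median was -0.32.

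Markers of other cell types differed in sign between lists, and few were called. Over all 12668 tested genes 6853 differences were positive and 5815 negative, and 0.182% of genes were called. All 16 tested smooth muscle markers had negative differences, median -2.07, and none was called. Their sum was 1957 to 12334 FPKM in WT and 292 to 1480 in the knockout. WT library 3 held the highest sum, and the median was -1.24 when it was left out. Myl9, Myh11 and Mylk belong to this list, with Actg2 and Acta2, the smooth muscle actins, at its head. All 10 epithelial markers had positive differences, median 0.90, and summed to 2219 to 13132 FPKM in WT and 8847 to 13290 in the knockout, overlapping ranges. Of 10 neutrophil markers 8 were tested, all 8 positive, and 2 were called by limma: S100a8 (log2 difference 9.10) and S100a9 (8.42), the subunits of calprotectin. The neutrophil sum was 0.666 to 2.61 FPKM in WT and 583 to 1556 in the knockout, and S100a8 gave 62.8% of it over the 6 libraries. Among the knockout libraries this sum, like those of heart muscle, smooth muscle, epithelial and other immune markers, was highest in library 1, as Myl7 was. For neutrophils that order was the order of S100a8, and most genes of the list had another. Only S100a8 and Mrgpra2b were highest in library 1. S100a9 was highest in library 2, and Retnlg, Clec4d, Csf3r, Il1r2, Cxcr2, Mmp8 and Trem1 were lowest in library 1. The part of smooth muscle, epithelial and neutrophil cells in the levels of Myl7 was not tested. Endothelial sums overlapped, at 12.8 to 20.2 FPKM in WT and 10.04 to 19.0 in the knockout, and so did those of other immune markers, at 150.1 to 767 and 441 to 595.

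**Figure D3:**
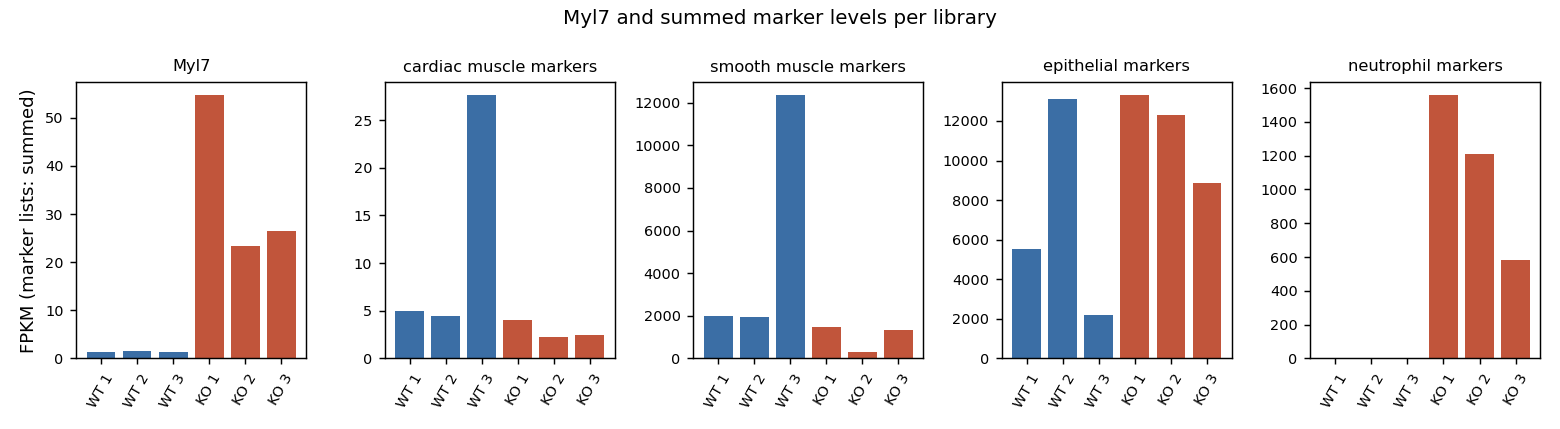
Bars give Myl7 and the summed markers of heart muscle, smooth muscle, epithelium and neutrophils in each library, in FPKM, with a scale of its own for each panel. Heart muscle markers are highest in WT library 3 (27.6 FPKM) and at 4.06 or less in the knockout libraries, in which Myl7 is at 23.4 or more and neutrophil markers at 583 or more.

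Libraries differed in ways the groups do not explain. The recovered reads totalled 13107941 to 15797928 per library. Mitochondrial genes took 8.61 to 43.4% of them, and the highest share was in WT library 3, which also held the most smooth muscle RNA. Without that library the log2 difference of Myl7 was 3.80, close to that with it, and the limma adjusted p rose to 0.0980, above the threshold. The adjusted p was also above 0.05 when WT library 1 (0.0615), knockout library 2 (0.0665) or knockout library 3 (0.0728) was left out, while the difference stayed between 3.45 and 4.05.

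The neighbourhood of Myl7 was read gene by gene. Within 250 kb lie 16 other genes of the file, of which 11 were tested, and 3 were at 0 in all libraries. In the limma fit 0 of the 11 passed the adjusted threshold, beside 0.182% of all genes, and 0 an unadjusted one of 0.05, beside 10.2%, with log2 differences from -0.33 to 0.54. Pold2, a DNA polymerase subunit gene 18.3 kb from Myl7, was at 13.1, 8.63 and 10.2 FPKM in WT and 10.7, 10.5 and 15.6 in the knockout, and its groups overlapped. Nudcd3, a chaperone partner, was the 1 gene of the 11 whose groups did not overlap, beside 16.7% of all tested genes, with the knockout lower by a log2 difference of -0.33 (SE 0.22).

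**Figure D4:**
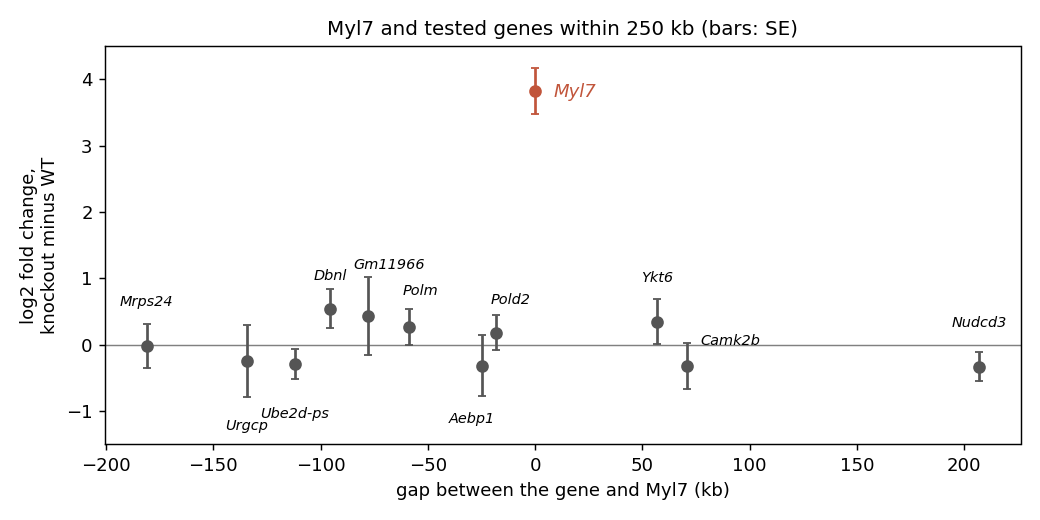
Points give the log2 difference, knockout minus WT, of Myl7 and of the 11 tested genes within 250 kb against the gap to Myl7 in kb, with bars for the SE. Myl7 sits at 3.82 and the neighbours between -0.33 and 0.54.

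The 250 bases before the start of Myl7 are shown as the sequence next to the gene with the largest difference of the set. They are taken from the RefSeq table for GRCm38.p6, chr11:5898783-5899032, minus strand, written in the direction of transcription. Capitals mark a CArG box, the motif bound by serum response factor in many muscle genes.
Myl7 upstream: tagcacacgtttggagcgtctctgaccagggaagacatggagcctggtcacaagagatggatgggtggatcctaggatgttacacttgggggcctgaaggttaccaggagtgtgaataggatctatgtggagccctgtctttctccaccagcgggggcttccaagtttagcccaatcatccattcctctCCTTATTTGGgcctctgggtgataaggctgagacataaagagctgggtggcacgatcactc
The box lies 52 to 61 bases before the start. A GATA motif (GATA with A or T before it and A or G after it) lies 37 to 42 bases before it, and a match to the NF-kB motif 89 to 98 bases before it. Both strands were searched, in windows of the 250 bases before each start. Of all 32851 such windows, 1.47% held a CArG box, 26.5% a GATA motif and 7.25% an NF-kB motif.

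The 8 light chains matched 9 windows of that table, since Myl6 has 2. A CArG box was in 3 of them, those of Myl7, Myl3 and 1 of Myl6, and these genes had unlike levels: Myl3 was at 0 and Myl6 was the most abundant. GATA motifs were in 3 windows (Myl7, Myl6 and Myl1) and NF-kB motifs in 2 (Myl7 and Myl12a). AP-1 motifs (TGANTCA) were in 2, Myl6b and Myl12a, against 6.75% of all windows. The STAT motif (TTCNNNGAA, in 7.02% of all windows), the ISRE core (GAAANNGAAA, in 2.98%) and the MEF2 motif (in 2.92%) were in 0 of the 9. These are matches of letters only. Outside the set, the window of Myl9 held a CArG box 152 to 161 bases before its start and an NF-kB motif. The part of these motifs in the level of any gene was not tested.

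Among all tested genes, the pattern most like that of Myl7 over the 6 libraries was that of Plet1os. Likeness was the root mean square difference of log2(FPKM + 1) values, each centred on the gene's mean, and since it was computed over both groups it mostly reads the same contrast. Plet1os, an antisense transcript at Plet1 on chromosome 9, was at 0.425 on that measure, with 0.597, 1.03 and 0.746 FPKM in WT and 24.8, 17.8 and 9.16 in the knockout. Whether reads were counted by strand is not given, so its reads cannot be told apart from those of Plet1. Il10 followed at 0.461, then Gml2 at 0.488, Ak4 at 0.551 and Gml at 0.596. Ak4, a mitochondrial adenylate kinase, was at 1.99, 2.90 and 3.60 FPKM in WT and 64.0, 33.9 and 15.0 in the knockout. Like Myl7, Ak4 and Plet1os were highest in knockout library 1, whereas Gml2 and Gml were highest in library 2 and Il10 in library 3.

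The other tested light chains had nearest genes at smaller values of this measure, none of them called. The measure is not scaled to a gene's spread, so genes that vary little get small values. Its size therefore does not rank how alike the patterns are between light chains. Nearest to Myl12a were Dtd2 (0.081), Ube2f (0.10) and Tbc1d10b (0.105), which shared its low WT library 1 and high WT library 2. Nearest to Myl12b were Taf10 (0.059), Nagk (0.061) and Erp44 (0.061), each lowest in WT library 3 as Myl12b was. Nearest to Myl6 were Fam168a (0.144), Phf1 (0.164) and Ppm1l (0.164), each highest in WT library 3. Nearest to Myl6b were Zfp445 (0.011), U2surp (0.014) and Ccdc191 (0.041), whose WT library 2 was the lowest of all 6.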

How the data were processed

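Colon RNA was measured in 6 libraries, 3 per group, and sample titles gave the groups. Total RNA went into libraries made with an NEBNext Ultra kit, per the labels' protocols. Bowtie 0.12.2 and the builds hg38 and mm8 appear in the submitters' processing notes, with no role. The authors deposited FPKM for 54532 genes, with coordinates and gene lengths. How reads were counted and scaled is not given in any source used here. Of 54409 gene identifiers in GENCODE M21, 53499 (98.3%) had the same coordinates there, so positions are stated as GRCm38. In each library the product of FPKM and length came in steps of 1 read, whole within 0.01 for 100% of values, and this gave the reads. The library size implied by these steps ranged from 0.836 (WT library 2) to 1.23 (WT library 1) times the recovered reads. The values were therefore not scaled to that read total alone.

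Chi-square per gene was 60.7 or more for every pair of libraries, so none repeated another. Nothing says that libraries came from separate animals, and p-values then measure only the spread between these libraries. Values were log2(FPKM + 1), which understates the change of low genes. The 12668 genes with a mean of at least 1 FPKM entered limma 3.58.1 (lmFit and eBayes, trend on) in R 4.3.3, with Benjamini-Hochberg adjustment, a threshold of 0.05 and no replicate block. Simulations of this comparison over 12668 genes, in 10 runs, recovered 6.6% of changes of 1 on the log2 scale. They recovered 66.8% of changes of 2 and 89.8% of changes of 3. Most changes of 1 would thus not be called under these settings. The simulated errors were normal and independent between genes. Shifts that many genes of a library share were not modelled, so recovery in the real libraries may differ.

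The light chains and all gene lists were chosen with earlier results of these data known. Named were the 8 light chains, genes within 250 kb of Myl7 or overlapping a light chain, called genes and up to 5 of the most abundant tested genes per list (4 pathway and 7 marker lists), and the 5 genes most like Myl7 and 3 most like each other tested light chain. Any other gene named was chosen after its values were seen. Some genes that this rule names are not reported here. Alternatives were other pseudocounts, filters, scalings and fits, a replicate block, limma voom on recovered reads, and leaving out each library. Sequences came from GENCODE M21 and RefSeq (GRCm38.p6), read with Python 3.11.15 and Biopython 1.88.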

Additional observations from a re-analysis of the deposited data

How the results depend on the processing

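Over 19 alternatives the log2 difference of Myl7 stayed above 0, from 3.45 to 4.56; it was 4.47 and 4.56 with pseudocounts of 0.1 and 0.01, 4.48 with voom on recovered reads, and 3.45 to 4.05 when 1 library was left out. Myl7 was called in 12 of the 19, with limma adjusted p from 0.00105 to 0.112. It was not called with no filter (0.0723), with voom (0.112), with the replicate block (0.0672) or when WT library 1 or 3 or knockout library 2 or 3 was left out. No other light chain was called under any of the 19, and the 4 pathway lists held 0 called genes in each. The number of genes called, 23 in the main analysis, was 9 with a pseudocount of 0.01, 4 with no filter, 46 with TPM (44 higher, 2 lower), 331 with a weight per library (237 higher, 94 lower), 2 with voom and 4 to 29 with 1 library left out, 12 without WT library 1, 5 without WT library 3, 4 without knockout library 2 and 7 without knockout library 3. TPM moved the median of all genes from 0.04 to 0.15. The cause of these shifts was not tested. With a replicate block 7 genes were called. Deviations of libraries with the same number correlated at -0.15, 0.18 and 0.40, and those of the other pairs at -0.39 to 0.18. With 3 libraries per group these values cannot settle whether the numbers pair the libraries. Myl12a (0.13 to 0.93, the highest with a weight per library), Myl12b (0.02 to 0.44) and Myl6b (-0.33 to -0.05, not tested with the minimum of 5 FPKM) kept their sign, and Myl6 did not (-0.53 to 0.25). The share of Myl7 among regulatory chains was 0.296% in WT and 16.5% in the knockout with the other light chains included, 3.23% in WT with principal transcript lengths, and 4.67 to 5.91% and 41.8 to 54.5% with 1 library left out. Depth limits Myl1, Myl3, Myl4, Myl6b and the WT level of Myl7.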
